A study of Mus musculus with 6 samples.

Results

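Mitochondrial ribosomal proteins are encoded in the nucleus, made in the cytosol and imported into mitochondria, where they form the large and the small subunit of the mitochondrial ribosome around RNAs of the mitochondrial genome. This ribosome translates the few proteins of the respiratory chain and ATP synthase that mitochondrial DNA encodes, while nuclear genes encode the other subunits of these complexes. The genes were taken by name: every probe set annotated to 1 gene symbol that begins with Mrpl or Mrps and a digit was a member. The rule gave 156 of the 45037 probe sets and 76 of the 18193 named genes. Of these genes, 49 encode proteins of the large subunit and 26 proteins of the small subunit. Mrps36 carries a ribosomal name, but its product is now placed in the 2-oxoglutarate dehydrogenase complex, so it was kept as a member outside both subunits. Mrps30 and Mrps18a are named for the small subunit and were counted with the large subunit, where structures of the mammalian ribosome hold their products.

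The values came from 6 Affymetrix arrays on the log2 scale after RMA normalization by the authors, with mature adipocytes (AC) on 3 of them and dedifferentiated fat (DFAT) cells on the other 3. AC were isolated from mouse fat tissue, with no strain, age or sex in the sources used here. DFAT cells were a proliferating preadipocyte line that ceiling culture, in which buoyant adipocytes attach below a surface, gave from adipocytes of GFP transgenic mice. The sources used here do not give their density at harvest for the arrays, and a line limits what their arrays say of other DFAT cells. The sources do not say whether replicate arrays used separate animals or separate cultures, so the p-values cover no more than the spread among the arrays at hand, which may be technical.

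Markers of the labelled cells were present in their groups. All 13 measured white adipocyte markers were lower and all 14 cell cycle genes were higher in DFAT cells (under each of the 4 other scalings described further on as well), with list means of 12.5 to 12.7 in AC and 6.11 to 6.13 in DFAT cells for the former and of 5.01 to 5.47 and 10.5 to 10.6 for the latter. Markers of other cell types were present on the AC arrays too. No endothelial marker of 16 and 2 of 17 macrophage markers were at background level in AC, against 13 and 15 in DFAT cells. The array of AC replicate 1 stood apart, with Pearson correlations across probe sets of 0.971 and 0.969 to AC replicates 2 and 3, whose correlation to each other was 0.991. Endothelial markers averaged 9.76 there, against 7.96 and 7.83 in AC replicates 2 and 3, while macrophage markers averaged 6.39 there, against 7.92 and 8.03, and epithelial markers averaged 9.33, against 8.66 and 8.64. The part of these cells in the differences given here was not tested. In bulk RNA, fewer cells of a type and less RNA per cell cannot be told apart. Background level was set per array at the 95th percentile of 85 probe sets for lens, retina, inner ear and germ cell genes, which was 5.66 to 5.91 over the arrays.

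Most mitochondrial ribosomal protein genes differed by less than 2-fold between AC and DFAT cells, in either direction. The brightest probe set on average stood for each gene, and all 76 lay above background level on all 6 arrays. By limma at an adjusted p under 0.05, 7 rose and 16 fell in DFAT cells relative to AC, and 53 did not pass the test. Across all named genes 46.4% passed, 22.6% as higher and 23.8% as lower, and among the 8275 genes above background level on all arrays 58.8% passed, 35.5% as higher and 23.4% as lower. The median difference of the members was -0.14 on the log2 scale (DFAT cells minus AC, quartiles -0.38 and 0.24), against -0.10 over all named genes. Only Mrps2, Mrpl27, Mrpl38 and Mrpl24 were at least 2-fold apart, which is 5.26% of the members, where 27.5% of all named genes and 31.2% of those above background level were. For 52 members the 95% interval of the difference lay within 2-fold on either side, 68.4% of them, beside 56.8% of all named genes and 48.3% of those above background level. The AC and DFAT arrays did not overlap for 45 members, 18 higher and 27 lower, beside 60.0% of all named genes (27.5% higher and 32.5% lower) and 73.8% of those above background level.

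**Figure D1:**
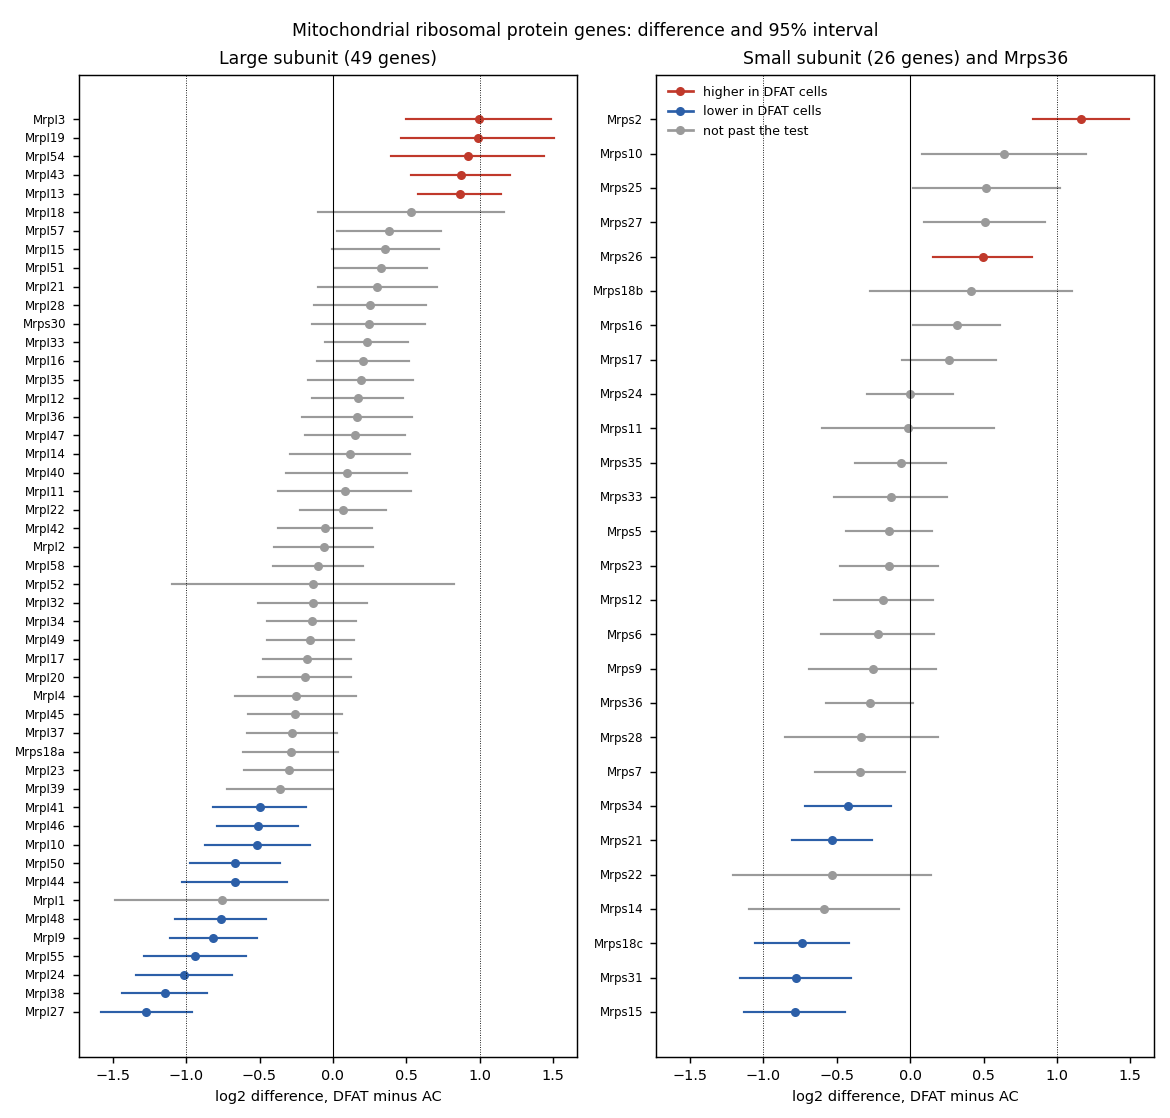
Log2 difference between DFAT cells and AC (3 arrays each) for each of the 76 mitochondrial ribosomal protein genes, with its 95% interval as a bar. Red and blue mark the 7 higher and 16 lower genes by limma at an adjusted p under 0.05, grey the 53 that did not pass, and dotted lines mark a 2-fold difference, which 4 genes reach. Values are as deposited, and the counts change with the scaling of the arrays.

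How many members rose or fell depended on the scaling of the arrays. As deposited the counts were 7 and 16, and they were 15 and 13 with each array centred on its median, 6 and 44 with arrays centred on 11 reference genes, and 15 and 1 with arrays centred on 18 hybridization control probe sets. The share of members called was 36.8%, 65.8% and 21.1% in these settings, beside 38.0%, 60.2% and 35.2% of all probe sets. That base includes probe sets under background level, while every member lay above it. As deposited 30.3% of the members passed, beside 38.4% of all probe sets but 58.8% of the genes above background level. The share of those genes is not given for the other scalings. These scalings moved the median of all probe sets from -0.06 to 0.07, -0.45 and 0.40, and that of the members to -0.01, -0.53 and 0.33. At least 2-fold apart were then 7, 12 and 7 members in place of 4, and with the reference genes all 12 were lower and Mrps2, at 0.77, was not among them. Calls that held under every one of the 4 other scalings were those of Mrps2, Mrpl3, Mrpl19, Mrpl54, Mrpl43 and Mrpl13, which rose, and of Mrpl27, which fell. With hybridization controls the other 15 lower members lost their call; 14 kept their sign, and Mrps34 had 0.04.

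AC replicate 1 lay below both other AC arrays for 66 of the 76 members, at a median of -0.30 on the log2 scale relative to their mean. Of the 8275 genes above background level it lay below both for 58.4%. The part of the other cell types on that array in this was not tested. Without it, 9 members were higher and 26 lower, and 6 were at least 2-fold apart. The calls are 46.1% of the members, beside 46.6% of all probe sets, dim ones included. Those that joined as lower included Mrpl1 at -1.13, Mrps22 at -0.89 and Mrps14 at -0.84, all 3 singled out after their values were seen. Another probe set of Mrpl1, above background level on 5 arrays, had a difference of 0.47 over all 6 arrays, with groups that did not overlap, and did not pass the test (adjusted p = 0.0985 from limma). The interval then lay within 2-fold for 58 members.

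Promoters of these genes are known for sites of NRF1, of the ETS factor GABPA and of YY1. As deposited, Nrf1, Gabpa and Yy1 all rose in DFAT cells, with Nrf1 at or under background level on every AC array. Whether these rises bear on the members was not tested. Windows from 250 bases before to 50 bases after the start were found in RefSeq (GRCm38.p6) for 67 of the 76 genes and were searched on both strands for an NRF1 motif (the capitals in the sequence of Mrpl9, with any base allowed at the sixth), CCGGAAG (GABPA) and AAGATGGCG (YY1). The second motif can share its last 3 letters with the start of the third. The NRF1 motif stood in 12 of the 67 (17.9%), beside 5.19% of all 27025 genes with a window and 13.5% of the 6812 above background level on all arrays. CCGGAAG stood in 25 (37.3%), beside 9.93% and 22.9%, and AAGATGGCG in 8 (11.9%), beside 1.64% and 4.40%. At least 1 motif stood in 39 of the 67 genes, in 3 of 4 that rose, 6 of 14 that fell and 30 of 49 that did not pass. Over all genes with a window the share was 15.1%, and over those above background level 36.0%, near the 42.9% of the genes that fell. Of the members that did not pass it was 61.2%. Only 4 of the 7 genes that rose had a window, and whether the share differs by direction was not tested. The 100 bases before the start are shown for the 2 genes of each direction with the largest difference among those with a match there, Mrpl3 (plus strand, chr9:105053168-105053267) and Mrpl43 (minus strand, chr19:45006443-45006542), which rose, and Mrpl27 (plus strand, chr11:94653691-94653790) and Mrpl9 (plus strand, chr3:94443236-94443335), which fell. Capitals mark the matches, the NRF1 motif in Mrpl9 and CCGGAAG in the others.
Mrpl3: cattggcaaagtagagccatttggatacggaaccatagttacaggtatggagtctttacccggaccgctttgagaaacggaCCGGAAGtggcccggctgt
Mrpl43: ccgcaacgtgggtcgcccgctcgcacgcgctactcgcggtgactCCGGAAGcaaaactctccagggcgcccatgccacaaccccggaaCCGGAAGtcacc
Mrpl27: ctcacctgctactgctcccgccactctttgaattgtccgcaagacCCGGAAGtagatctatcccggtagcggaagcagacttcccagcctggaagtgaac
Mrpl9: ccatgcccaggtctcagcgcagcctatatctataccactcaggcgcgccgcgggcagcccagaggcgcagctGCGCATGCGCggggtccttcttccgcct
In Mrpl43, which rose, the match stands at 2 places, and in Mrpl27, the member with the largest fall, the same 7 letters stand at 1 place, 55 bases before the start. A match is a description of letters and not a measured site.

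The 7 genes that rose came from both subunits. Mrps2, whose bacterial counterpart binds between the head and the body of the small subunit, had the largest rise. Its log2 values were 8.04, 8.29 and 8.41 in AC, against 9.46, 9.38 and 9.38 in DFAT cells, a rise of 1.16 (95% interval 0.83 to 1.49, adjusted p = 0.000351 from limma). Its groups lay clearly apart, and the AC arrays spread more than the DFAT arrays, but its other, dimmer probe set had a difference of 0.17 and did not pass (adjusted p = 0.614 from limma). In the large subunit, Mrpl3, which lies near the peptidyl transferase centre, was 8.46, 9.26 and 9.13 in AC, against 9.88, 10.00 and 9.95 in DFAT cells. Mrpl19, whose bacterial counterpart sits at the interface of the subunits, was 7.28, 7.92 and 8.19 in AC, against 8.78, 8.77 and 8.81 in DFAT cells. The rises of Mrpl3 and Mrpl19 were 0.99 each, with an adjusted p from limma of 0.00699 and 0.00944, and the lowest AC value of both was that of replicate 1. Another probe set of Mrpl3, above background level on all 6 arrays, had 0.71 and did not pass (adjusted p = 0.118 from limma), though its groups did not overlap.
Mrpl13, a large subunit protein with a bacterial homologue, was 10.35, 10.48 and 10.44 in AC, against 11.30, 11.31 and 11.25 in DFAT cells. Its rise of 0.86 was the tightest of the 7 (95% interval 0.58 to 1.15, adjusted p = 0.000785 from limma), and 2 of its 3 other probe sets were also called higher. Mrpl54 and Mrpl43 have no bacterial homologue. Mrpl54 was 8.77, 9.48 and 9.63 in AC, against 10.21, 10.23 and 10.20 in DFAT cells, where Mrpl43 was 9.27, 9.64 and 9.57 and then 10.30, 10.42 and 10.37. Their rises were 0.92 and 0.87 (adjusted p = 0.0129 and 0.00195 from limma). Mrps26, of the small subunit, rose by 0.49 (adjusted p = 0.0297 from limma), a call that was lost with arrays centred on the reference genes, where its difference was 0.11, and after another quantile normalization (0.35, adjusted p = 0.053 from limma).

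Mrpl27 and Mrpl38 led the 16 genes that fell. Mrpl27, the homologue of a bacterial protein that reaches towards the peptidyl transferase centre, was 11.18, 11.04 and 11.29 in AC, against 9.98, 9.90 and 9.81 in DFAT cells. It fell by 1.27 on the log2 scale (95% interval -1.58 to -0.96, adjusted p = 0.000148 from limma), a 2.41-fold difference, and its other probe set was also called lower, with a difference of -1.39. Mrpl38, specific to mitochondrial ribosomes, was 8.56, 8.70 and 8.67 in AC, against 7.56, 7.42 and 7.52 in DFAT cells. It fell by 1.15 (95% interval -1.44 to -0.86, adjusted p = 0.00019 from limma), and neither of its other probe sets, both dimmer, passed the test. The groups lay far apart for both genes, with little spread among the arrays of either.
Mrpl24, at the exit of the tunnel through which new proteins leave, was 10.08, 10.35 and 10.43 in AC, against 9.26, 9.32 and 9.23 in DFAT cells, a fall of 1.01 on the log2 scale (adjusted p = 0.00074 from limma). Mrpl55 was 9.04, 9.30 and 9.46 and then 8.30, 8.39 and 8.30, a difference of -0.94 (adjusted p = 0.00148 from limma). Mrpl9 was 9.21, 9.31 and 9.46 and then 8.51, 8.54 and 8.49, a difference of -0.81 (adjusted p = 0.00145 from limma). In these genes too every DFAT array lay below every AC array. Another probe set of Mrpl9 was also called lower, with -0.82. A further one, above background level on all 6 arrays, had -0.31 with groups that overlapped, and did not pass (adjusted p = 0.183 from limma). Of the large subunit proteins without a bacterial homologue, Mrpl48, Mrpl44, Mrpl50, Mrpl46 and Mrpl41 fell by 0.77, 0.67, 0.67, 0.51 and 0.50, of which Mrpl41 was added after its values were seen. The product of Mrpl44 resembles ribonuclease III, and 2 of its 3 other probe sets were also called lower. Of Mrpl50, Mrpl48 and Mrpl41, another probe set above background level on all 6 arrays did not pass the test. Their differences were 0.20, of the other sign, for Mrpl50, -0.38 for Mrpl48 and -0.46 for Mrpl41 (adjusted p = 0.624, 0.147 and 0.0841 from limma). Mrpl10, the base of the flexible stalk that recruits translation factors, fell by 0.52 (adjusted p = 0.0307 from limma), while Mrpl12, which forms the stalk, had 10.14 ± 0.08 in AC and 10.31 ± 0.13 in DFAT cells (SD, n = 3 each; adjusted p = 0.369 from limma) and was chosen after its values were seen.

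**Figure D2:**
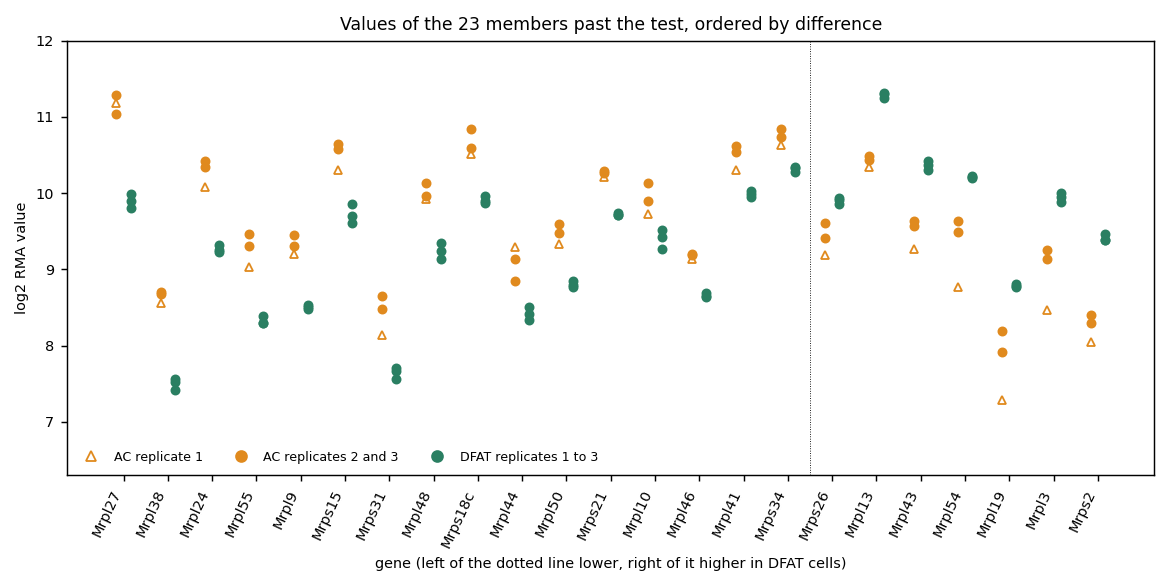
Log2 RMA values of the 23 mitochondrial ribosomal protein genes past the test, ordered by their difference; each mark is an array, in orange for AC (open triangles for replicate 1) and in green for DFAT cells. No gene has AC and DFAT marks that overlap, and replicate 1 is the lowest AC array of all 7 genes to the right of the dotted line, which rose.

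In the small subunit, Mrps15, Mrps31, Mrps18c, Mrps21 and Mrps34 fell. Mrps15 was 10.30, 10.65 and 10.58 in AC, against 9.86, 9.61 and 9.70 in DFAT cells, a difference of -0.79 (adjusted p = 0.00372 from limma). Another of its probe sets, above background level on all 6 arrays, had -0.24 with groups that overlapped, and did not pass (adjusted p = 0.498 from limma). Mrps31 fell by 0.78 (adjusted p = 0.00594 from limma) from 8.43 ± 0.26 to 7.64 ± 0.08 (SD, n = 3 each). Mrps21 had a small difference of -0.53 but a very narrow spread, with 10.22, 10.29 and 10.27 in AC, against 9.75, 9.71 and 9.71 in DFAT cells (adjusted p = 0.00838 from limma). Mrps34 fell by 0.42 (adjusted p = 0.0314 from limma).
The 3 genes of the Mrps18 family encode related proteins that sit at different places, those of Mrps18b and Mrps18c in the small subunit and that of Mrps18a in the large subunit. Mrps18c was 10.51, 10.59 and 10.84 in AC, against 9.87, 9.96 and 9.90 in DFAT cells, and it fell by 0.74 (95% interval -1.06 to -0.41, adjusted p = 0.00369 from limma). Mrps18a was 9.88, 10.16 and 10.20 and then 9.75, 9.80 and 9.83, with a difference of -0.29 that did not pass (95% interval -0.61 to 0.04, adjusted p = 0.147 from limma), and it passed as lower without AC replicate 1 (-0.39, adjusted p = 0.0218 from limma). Mrps18b was 8.19, 9.22 and 9.34 and then 9.09, 9.45 and 9.45, with a difference of 0.41 (95% interval -0.27 to 1.10, adjusted p = 0.318 from limma), and without AC replicate 1 its difference was 0.05 (adjusted p = 0.80 from limma). Whether the 3 differences differ from each other was not tested.

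At the middle of the range lay Mrpl42 and Mrps24, the members nearest to 0 in each subunit. Mrps24 was 10.26, 10.36 and 10.49 in AC, against 10.35, 10.39 and 10.38 in DFAT cells, with a 95% interval of the difference of -0.30 to 0.29. Mrpl42 was 11.02, 11.14 and 11.36 and then 11.13, 11.14 and 11.09, with an interval of -0.37 to 0.26. In these genes the DFAT arrays lay inside the range of the AC arrays. Mrps36 had 9.80 ± 0.10 in AC and 9.52 ± 0.06 in DFAT cells (SD, n = 3 each), and did not pass the test (adjusted p = 0.129 from limma).

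No difference between the subunits exceeded the spread of the arrays. In the large subunit 5 of 49 genes rose and 11 fell, with a median difference of -0.10, and in the small subunit 2 of 26 rose and 5 fell, with a median of -0.14. Members with a bacterial homologue rose in 3 cases and fell in 5 of 29 in the large subunit, and rose in 1 and fell in 3 of 16 in the small subunit. Those without a homologue rose in 2 and fell in 6 of 20, and rose in 1 and fell in 2 of 10. Within an array, the mean of the large subunit genes exceeded that of the small subunit genes by 0.32, 0.17 and 0.12 in AC and by 0.22, 0.20 and 0.16 in DFAT cells. The DFAT arrays lay inside the range of the AC arrays. The size of such a difference also reflects the probes, and only its change between arrays can be read.
A place in the large subunit where several members fell was the central protuberance, a ridge that faces the small subunit. Of 8 genes whose products build it, Mrpl27, Mrpl38, Mrpl46, Mrpl48 and Mrpl55 fell, with a median difference of -0.64 over the 8, beside 23.8% of all named genes that were called lower. Mrpl18, Mrpl40 and Mrpl58 did not pass. Of 6 genes around the exit tunnel, Mrpl24 alone fell. These groupings were made after the values were seen and were not tested. Mrpl27 was the only one of the 5 whose call held with arrays centred on hybridization controls.

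Of the 76 genes, 42 had several probe sets, up to 8 for Mrpl15. Over all 156 probe sets, 16 were called higher and 23 lower, beside 20.3% and 18.1% (38.4% together) of all 45037, and 34 were at or under background level on every array. Among the 16 called genes with several probe sets, another had the same call in 5, and none was called the other way. In 6 genes the representative did not pass but another probe set did. The clearest was Mrpl52, without a bacterial homologue. Its representative was 11.74, 10.00 and 10.15 in AC, against 10.43, 10.51 and 10.53 in DFAT cells, so that AC replicate 1 lay above all other arrays. The 2 other probe sets above background rose, one from 8.65, 9.12 and 9.28 to 10.27, 10.25 and 10.28, with a difference of 1.25, and the other with a difference of 1.08 (adjusted p = 0.000882 and 0.00121 from limma). Without AC replicate 1 the representative was also higher, by 0.42 (adjusted p = 0.0201 from limma). Of Mrps14, a probe set at 8.01, 8.38 and 8.59 in AC, against 7.26, 7.23 and 7.18 in DFAT cells, was called lower by 1.10, where its representative had -0.59 (adjusted p = 0.0688 from limma). A second probe set of Mrps9 was called lower by 0.47. The calls of Mrpl15, Mrpl58 and Mrps5 came from probe sets at or near background level.

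Among genes that work beside these proteins, some rose and others fell. Of 4 measured mitoribosome proteins with other names, Ptcd3 rose by 0.53 and Dap3, a GTP-binding protein of the small subunit, had a difference of -0.31 (adjusted p = 0.0844 from limma). Of 27 genes of ribosome assembly and rRNA modification, 2 rose and 5 fell, with a median difference of -0.10 beside -0.10 over all named genes. The GTPase Mtg1, which acts late in assembly of the large subunit, fell from 8.80 ± 0.23 to 7.21 ± 0.08 (SD, n = 3 each), by 1.59, and Ngrn and Rpusd3 fell by 1.05 and 0.98, while Rcc1l and Noa1 rose by 0.96 and 0.76. Of 12 translation factors, 2 rose and 4 fell (median -0.02). Mtrf1l, a release factor, was 6.14, 6.28 and 5.42 in AC, against 7.87, 7.99 and 7.81 in DFAT cells, a rise of 1.94 (adjusted p = 0.000289 from limma) with AC replicate 3 at background level, and Lrpprc, which stabilizes mitochondrial mRNAs, rose by 0.57. The initiation factor Mtif2, the recycling factor Gfm2 and the elongation factor Tufm fell by 0.77, 0.65 and 0.59. Of 16 mitochondrial tRNA synthetases, 2 rose and 3 fell (median -0.09). Fars2, Lars2 and Rars2 fell by 1.59, 1.09 and 0.81, Yars2 rose by 1.57, and Mars2 was called higher but lay at or under background level on all arrays. These counts read against the 22.6% higher and 23.8% lower of all named genes, and they moved with the scaling. With hybridization controls they were 7 and 1 for assembly, 2 and 0 for the factors and 3 and 1 for the synthetases, and with the reference genes 1 and 15, 1 and 6, and 2 and 9.

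Of 9 genes of mitochondrial DNA copying and transcription, 4 rose and 1 fell (median 0.18), but 1 was higher and 2 were lower with arrays centred on the reference genes. The counts as deposited, here and for the regulators below, stand beside 22.6% higher and 23.8% lower of all named genes. Tfam, which packs mitochondrial DNA and starts its transcription, was 7.10, 7.99 and 8.10 in AC, against 9.14, 9.07 and 9.06 in DFAT cells, a rise of 1.37 (adjusted p = 0.00352 from limma). Ssbp1, Twnk and Polrmt, the single-strand binding protein, the helicase and the RNA polymerase of mitochondria, rose by 0.65, 0.56 and 0.50, and Polg2 fell by 0.42. Of 11 regulators of nuclear genes for mitochondria, 6 rose and 2 fell (median 0.65). Nrf1 was 6.94, 7.04 and 7.03 in DFAT cells and at or under background level on every AC array, so it was at least 2.33-fold higher against that level. Pprc1, a coactivator, rose by 1.97, Gabpa by 0.83 and Yy1 by 0.78. The related coactivators Ppargc1b and Ppargc1a fell. Ppargc1b was 8.26, 7.80 and 7.96 in AC, against 6.59, 6.38 and 6.47 in DFAT cells. Ppargc1a was 6.11, 5.95 and 5.68 in AC, under background level on AC replicate 3, and at background level on every DFAT array. It was at least 1.12-fold lower, with that AC value averaged in. With the reference genes 3 regulators were higher and 2 lower. Myc was 9.69, 11.72 and 11.60 in AC, with AC replicate 1 the lowest, against 10.40 to 10.53 in DFAT cells, and did not pass the test (adjusted p = 0.432 from limma).

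**Figure D3:**
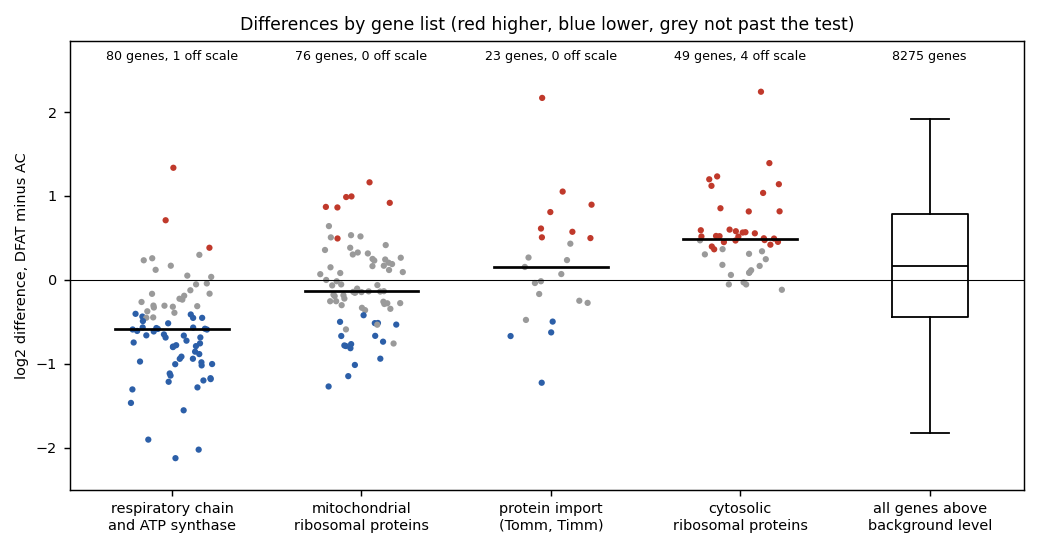
Log2 difference between DFAT cells and AC for each gene of 4 lists (points, red higher, blue lower and grey not past the test by limma; black lines are medians) and for the 8275 genes above background level (box of quartiles with whiskers at the 5th and 95th percentile); 1 respiratory chain gene and 4 cytosolic genes lie off the scale. Medians as deposited are -0.59 for the respiratory chain, -0.14 for mitochondrial ribosomal proteins, 0.15 for protein import and 0.49 for cytosolic ribosomal proteins.

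The median difference of the members lay between those of the respiratory chain and of the cytosolic ribosome. Of 80 nuclear genes for the respiratory chain and ATP synthase, 3 rose and 52 fell, with a median difference of -0.59, and of 49 genes for cytosolic ribosomal proteins 32 rose and 1 fell, with a median of 0.49. Of 23 genes of the protein import machinery (Tomm and Timm), 8 rose and 4 fell as deposited. Of all named genes 22.6% were higher and 23.8% lower, and of those above background level on all arrays 35.5% and 23.4%. With hybridization controls the respiratory chain list had 5 higher and 11 lower, with a median of -0.12, and with the reference genes the cytosolic list had 13 higher and 3 lower, so their counts also moved with the scaling. Differences between list means within an array do not change when arrays are centred in another way. The mean of the mitochondrial ribosomal protein genes minus that of the respiratory chain genes was -1.78, -1.59 and -1.57 in AC, against -1.07, -1.08 and -1.06 in DFAT cells, a change of 0.58. Against the cytosolic ribosomal protein genes it was -2.04, -1.68 and -1.69 in AC, against -2.44, -2.39 and -2.41 in DFAT cells, a change of -0.61. AC replicate 1 lay farthest from the other AC arrays in both. The groups did not overlap in either case, so from AC to DFAT cells the members changed upward relative to the respiratory chain genes and downward relative to the cytosolic ribosomal protein genes, while the sign of each gap stayed negative and is not a comparison of levels. The comparison lists were made by symbol and hold isoforms of other tissues and cell states, such as Cox8b, which was at background level in DFAT cells.

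**Figure D4:**
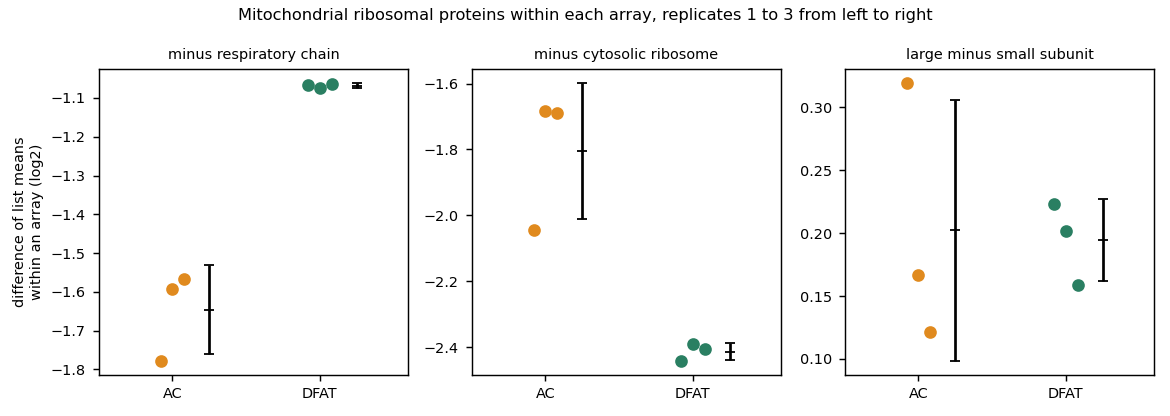
Mean log2 value of the mitochondrial ribosomal protein genes minus the mean of the respiratory chain genes (left) or of the cytosolic ribosomal protein genes (middle), and of the large minus the small subunit (right), within each array. Points are arrays, bars the mean and SD of 3 arrays; the left and middle panels part the groups by 0.58 and -0.61, and in the right panel they overlap.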

How the data were processed

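Per the labels, each deposited table holds log2 expression values. The authors scanned Affymetrix GeneChip Mouse Genome arrays and normalized them with RMA in the R package affy, versions not stated, which corrects background, equalizes the arrays' distributions and summarizes each probe set. Forced to one distribution, such values cannot show a change of total RNA. The sources used here do not give the set of arrays that was normalized jointly. Gene names came from the platform annotation. All 76 member genes were found with the same symbol in RefSeq by Entrez ID, and the 4 probe sets that hold an Mrpl or Mrps symbol beside another gene were left out.

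The difference of DFAT cells minus AC was tested with limma 3.58.1 under R 4.3.3 (lmFit and eBayes, two-sided, Benjamini-Hochberg over 45037 probe sets without the 64 controls, threshold 0.05). The fit was tested on simulated data that gave both groups the SD of the DFAT arrays. It therefore does not cover the larger spread of the AC arrays (median SD of members 0.195, against 0.060 in DFAT cells). The 3 arrays a group limit the precision, and an exact permutation test of 3 against 3 cannot go below 0.1. A gene at or under background level on every array of a group has only a bound: the mean of the other group against background level. Members, lists and named genes were chosen with earlier results of these data known. Each gene was represented by 1 probe set, that with the highest mean over the 6 arrays. Named were, per class, the 5 largest falls, then every rise, the Mrps18 genes, members nearest to 0 and those whose probe sets disagree. The groups by place in the large subunit were made after the values were seen. Of other lists, the 3 largest differences and exceptions were named. Python 3.11.15 with pandas 2.3.3 and matplotlib 3.10.9 made tables and figures. Tried as alternatives were 4 other scalings, a floor at background level, a filter on dim probe sets, other variance estimates and array weights. Further ones were Student's t-test, a 4-fold rule, a replicate block, other ways to represent a gene, and each array left out. The authors used the 4-fold rule for other comparisons of arrays and Student's t-test for other assays.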

Additional observations from a re-analysis of the deposited data

How the results depend on the processing

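Under 19 alternatives, the counts of members higher and lower stayed within 1.5 times the 7 and 16 given, with these exceptions. With each array centred on its median 15 were higher, with reference genes 44 were lower, and with hybridization controls 15 were higher and 1 was lower. A floor at background level gave 12 higher, with 40.8% of the members called in either direction, beside 29.6% of all probe sets. A rule of a 4-fold difference gave 0 in either direction, beside 8.31% of all probe sets. Without AC replicate 1, 26 were lower, and without AC replicate 3, 11 were higher. The median difference of the members, -0.14, was -0.23 after another quantile normalization, -0.0071 with array medians, -0.53 with reference genes and 0.33 with hybridization controls. Leaving out each array gave 6 to 11 higher and 11 to 26 lower, with medians of -0.19 to -0.06. Called were then 22.4% to 46.1% of the members, beside 29.2% to 46.6% of all probe sets. The most higher came without AC replicate 3 and the most lower without AC replicate 1. With Benjamini-Hochberg adjustment, Student's t-test called 5 and 16, of which 3 and 15 are the genes given. That is 27.6% of the members, beside 29.8% of all probe sets. With dim probe sets left out, 9 members were higher and 17 lower, 34.2% of them, beside 61.8% of the probe sets kept. Of the split of all calls, 52.9% were higher as deposited, 63.0% with array medians, 22.3% with reference genes and 78.5% with hybridization controls.

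Mrps34 turned to 0.042 with hybridization controls, and Mrpl52 to 0.52 with the mean over its probe sets and to 0.42 without AC replicate 1 (leaving out each array gave -0.45 to 0.42). The cause was not tested beyond these values. Over 32 named genes and all alternatives, 513 results kept their direction or stayed short of the test, 68 lost a call, 23 gained one and 3 reversed. With the replicate number as a replicate block, 8 members were higher and 14 lower, 28.9% of them, beside 35.6% of all probe sets. Same-numbered arrays did not deviate together (correlations of -0.02, -0.03 and 0.01). The sources do not say whether they were prepared together, and these values, from few arrays a group, cannot settle it. All representatives lay above background level, and the SD of the AC arrays exceeded that of the DFAT arrays in 74 of 76 genes.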
